A study of Saccharomyces cerevisiae with 32 samples.

Results

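The C-terminal combinatorial library of CRIPT is a set of 8-residue peptides in which the last 4 residues, Q5, T6, S7 and V8, were varied together while K1, N2, Y3 and K4 stayed as in wild type. Its members were all sequences listed for that library, 117723 of the 470640 sequences scored in the series. Of these, 101553 had no stop codon, wild type included, and 16170 carried a stop at one or more of the varied positions. Positions are counted from 1 at the first listed residue, so V8 is the C-terminal residue of the ligand. The library was grown in yeast of lab strain BY4741, in 3 input and 3 output samples labelled as biological replicates. Input cultures grew without drug for 5 generations under plasmid selection, and output cultures then grew for about 5 generations in the same kind of medium with 200 µg/mL methotrexate. All groups shared the strain, the plasmid selection and the drug dose of the output cultures. The authors had merged the replicates into 1 fitness score and 1 error for each sequence. No spread between replicates and no read depth can therefore be given, and each value below carries the authors' error.

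PDZ domains are small protein modules that bind the C-terminal end of other proteins. The peptide adds a strand to a sheet of the domain, its terminal carboxylate is held by a conserved loop, and the last side chain enters a hydrophobic pocket. Ligands are sorted into classes by the residue 2 places before the last one. Class I ligands have serine or threonine there, class II ligands a hydrophobic and class III ligands an acidic residue, each with a hydrophobic residue at the end. PSD95 is a scaffold protein of excitatory synapses, and PDZ3, the third PDZ domain, binds the C-terminus of CRIPT as a class I ligand. In a protein complementation assay, each binding partner carries a piece of an enzyme that resists methotrexate, so growth in the drug depends on how much complex forms. The score thus reads binding in the cell together with the amount of each fusion protein, and these cannot be told apart here.

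The sequences on which the results turn are listed first. Wild type and the best scoring sequence for each number of changes show what the library tolerated, the next 4 show the residues accepted at the core positions 6 and 8, and the last 5 are combinations that departed from the sum of their singles or scored above the midpoint without S or T at 6.
wild type: KNYKQTSV
Q5E: KNYKETSV
Q5E with S7A: KNYKETAV
Q5E with S7K and V8C: KNYKETKC
Q5E with T6S, S7P and V8C: KNYKESPC
T6S: KNYKQSSV
V8C: KNYKQTSC
V8I: KNYKQTSI
V8L: KNYKQTSL
Q5E with V8H: KNYKETSH
T6S with V8H: KNYKQSSH
Q5E with S7F: KNYKETFV
Q5E with T6L: KNYKELSV
Q5E with T6Y: KNYKEYSV

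Wild type scored -0.00849 ± 0.0549 and the median of the stop variants, called the stop level below, was -1.001. The stop variants had an SD of 0.0885 over sequences, and their median authors' error was 0.0704. A score halfway along this range, -0.505, is called the midpoint and serves as a plain cut for strong growth. Coverage fell with the number of changes. The table listed 68 of 76 single, 1815 of 2166 double, 19696 of 27436 triple and 79973 of 130321 quadruple substitutions, or 63.5% of the 159999 possible sequences. The single substitutions not listed were K and W at positions 5 and 6, E, M and V at position 7, and W at position 8. Listing was uneven between residues. At position 5, proline was present in 97.1% of its possible sequences, tryptophan in 40.2% and glutamate in 39.7%, so the residue that scored highest at this position was also the least often listed.

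Most combinations grew no better than a peptide cut short. The median score was -0.3999 with 1 change, -0.952 with 2, -1.01 with 3 and -1.03 with 4. The typical triple and quadruple thus lay below the stop level, which pools stops at all 4 positions. Stop variants with the first stop at 8 had a median of -1.03, below that of the triples and close to that of the quadruples. Against wild type, 101429 of 101552 sequences (99.9%) scored lower at an adjusted p under 0.05 in a two-sided normal test that combined the authors' errors of the variant and of wild type, with Benjamini-Hochberg adjustment over the library. None of the sequences scored higher (0%) by that test, and 0 did so at an unadjusted p under 0.05. Each comparison carried the wild-type error of 0.0549, so a small gain could go uncalled. In a separate library of single and double CRIPT substitutions, the pairwise library, Q5E scored 0.165 ± 0.0197 and wild type 0.0314 ± 0.0140. That difference was not tested. By the same kind of test against the stop level, 3470 of 101552 sequences (3.42%) scored above it and 0 (0%) below it, although 656 lay below it at an unadjusted p under 0.05. The stop variants passed the same standardized score in 363 of 16170 cases (2.24%). A share called in any subset is therefore read against 2.24%, not against 0. At the midpoint the separation was clearer: 764 sequences (0.752%) lay above it, and 10 stop variants (0.0618%).

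With 1 change, 45 of 68 sequences scored above the stop level and 36 above the midpoint. With 2 changes these counts were 495 and 268 of 1815. Among triples 1338 of 19696 (6.79%) were above the stop level and 359 (1.82%) above the midpoint. Among quadruples 1592 of 79973 (1.99%) scored above the stop level, a smaller share than in the stop variants, and 101 (0.126%) above the midpoint, a larger share than in the stop variants. The N-terminal library, in which CRIPT positions 1 to 4 varied instead, fell far less with the number of changes. In that library 59949 of 76894 sequences (78%) scored above its own stop level of -0.807, where 10.6% of its stop variants passed the same score, and 26521 (34.5%) lay above its own midpoint of -0.424. Its quadruples had a median of -0.5204, and 29.2% of them were above the midpoint. With replicates merged, the difference between the libraries was not tested on samples.

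Sequences with the same number of changes differed widely by which wild-type residue was kept. Among triples, keeping only T6 left 250 of 5408 sequences (4.62%) above the midpoint, keeping only V8 left 75 of 4054 (1.85%), keeping only S7 left 20 of 5328 (0.375%) and keeping only Q5 left 14 of 4906 (0.285%). Among doubles, keeping T6 and V8 left 177 of 297 (59.6%) above the midpoint, with a median of -0.421. Keeping T6 and S7 left 30 of 327 (9.17%), and keeping Q5 and T6 left 37 of 331 (11.2%). Keeping S7 and V8 left 14 of 285 (4.91%), keeping Q5 and V8 left 9 of 253 (3.56%), and keeping Q5 and S7 left 1 of 322 (0.311%). A double that kept T6 and V8 was thus more often above the midpoint than a single substitution at T6, where 1 of 17 was, or at V8, where 3 of 18 were. In 14 of the 15 patterns of kept residues the share above the stop level exceeded that of the stop variants, the pattern with all 4 changed being the exception. The lowest of the 14, with only Q5 kept, was close to it, at 121 of 4906 (2.47%) against 2.24%. Stop variants with the first stop at 5 passed in 2.75%.

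Taken position by position over the whole library, T6 was kept in 529 of the 764 sequences above the midpoint (69.2%) and V8 in 308 (40.3%). S7 was kept in 85 (11.1%) and Q5 in 81 (10.6%). Among sequences that kept T6, 8.25% were above the midpoint, against 0.247% of those that changed it. For V8 these shares were 6.24% and 0.472%. For Q5 they were 1.38% and 0.714%, and for S7 1.35% and 0.713%.

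Single substitutions at T6 and V8 scored far lower than those at Q5 and S7. The mean difference from wild type was -0.829 over 17 substitutions at T6 and -0.734 over 18 at V8. It was -0.197 over 16 at S7 and -0.192 over 17 at Q5. The wild-type error of 0.0549 is common to these 4 means, and without it their errors ranged from 0.0120 to 0.01796. The T6 mean minus the V8 mean was -0.0948 ± 0.0216, past the adjusted threshold over 6 comparisons of positions. These errors combine the authors' errors only and leave out the spread between substitutions. Scores ran from -1.05 to -0.177 at T6 and from -1.04 to -0.0742 at V8. The comparisons thus speak to the listed substitutions and not to the positions in general. The size of the T6 minus V8 difference depended on which T6 substitutions were counted. T6S, the highest at -0.177, was 1 of 17 in the full set and 1 of 7 among those with an error at or below the library median. Among those, 7 at T6 and 18 at V8, the difference was -0.0282 ± 0.0231 and not past the threshold. Weighted by the inverse squared error it was -0.0638 ± 0.0196, still past it. The Q5 mean minus the S7 mean was 0.00468 ± 0.0198, which was not past it, and each of the other 4 comparisons was.

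At T6, whose hydroxyl group is the class I determinant, serine was the only listed substitution above the midpoint, at -0.177 ± 0.0490. The next highest, T6I, scored -0.688 ± 0.115 and was not past the threshold above the stop level, while T6D at -0.727 ± 0.0824, T6H at -0.757 ± 0.0507 and T6C at -0.797 ± 0.0610 were. The other 12, down to T6G at -1.05 ± 0.0680, were not. All 17 scored below wild type in the test.

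At V8, the side chain that enters the hydrophobic pocket, cysteine was the best tolerated residue. V8C scored -0.0742 ± 0.0609 and was the only listed substitution at this position not past the threshold below wild type. V8I at -0.191 ± 0.0501 and V8L at -0.203 ± 0.0491 followed, and these 3 were the only V8 singles above the midpoint. V8M scored -0.5501 ± 0.0498 and V8A -0.604 ± 0.0504. V8T, V8F and V8Q, between -0.774 and -0.810, were also above the stop level by the test. The other 10 were not, and V8G was lowest at -1.04 ± 0.0499.

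Substitutions at Q5 and S7 were graded rather than all or none, and each one listed scored above the stop level. At Q5 the 9 not past the threshold below wild type were Q5E at 0.0610 ± 0.0592, Q5V at -0.0295, Q5C at -0.0405, Q5T at -0.0435, Q5I at -0.0642, Q5H at -0.0705, Q5S at -0.08998, Q5F at -0.135 and Q5Y at -0.155. Q5D, which carries the same charge as Q5E on a shorter side chain, scored -0.335 ± 0.0528 and was below wild type. Q5L scored -0.4304 ± 0.0492, while V, I, M and A lay between -0.0295 and -0.238. Q5G at -0.444 ± 0.0617 and Q5P at -0.6300 ± 0.0469 were lowest. At S7 the 6 not below wild type were S7R at -0.0192 ± 0.0518, S7A at -0.0408, S7P at -0.0692, S7T at -0.0769, S7Q at -0.106 and S7K at -0.1603. The lowest were S7D at -0.369 ± 0.0632 and S7W at -0.365 ± 0.0576. Proline was thus the lowest residue at position 5 and among the highest at position 7.

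Pairs of residues at positions 6 and 8 were compared over all residues listed at positions 5 and 7. Threonine with valine was highest, with a median of -0.387 over 330 sequences besides wild type and 209 (63.3%) above the midpoint. Threonine with cysteine followed, with a median of -0.508 over 272 sequences and 136 above the midpoint. Serine with valine (94 of 314, 29.9%) and threonine with isoleucine (94 of 344, 27.3%) were close to each other, with medians of -0.734 and -0.731. Threonine with leucine had 71 of 372 (19.1%), serine with cysteine 46 of 289 (15.9%) and serine with isoleucine 26 of 347 (7.49%). Every other pair of residues at 6 and 8 had at most 2.36% above the midpoint, which was serine with methionine. The sequences within a pair share the residues at 6 and 8 and are not replicates, so no test was made between pairs.

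Exchanges at 1 position were then compared in the same sequence context, as the score of a sequence minus that of its counterpart with the wild-type residue. All 76 exchanges from a wild-type residue were taken: those at 5 and 7 with T6 and V8 kept, those at 6 with V8 kept and those at 8 with T6 kept. Of 9968 differences, 8218 (82.4%) were lower and 15 (0.15%) higher at an adjusted p under 0.05 over all 9968, by the normal test on the authors' errors. Contexts that already lay near the stop level could not fall further and count among the remainder.

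V8C was the mildest exchange at the core. Over 245 contexts the median difference was -0.0864, and 53 were past the threshold as lower, 2 as higher and 190 as neither. For V8I the median was -0.242 over 301 contexts with 196 lower, and for V8L -0.321 over 312 with 254 lower. T6S had a median of -0.219 over 275 contexts, with 179 lower and 2 higher. The other exchanges at T6 had medians between -0.593 and -0.659. The ranking of the exchanges at V8 held where serine replaced threonine at 6: there the medians were -0.0904 for V8C over 241 contexts, -0.178 for V8I over 285 and -0.2500 for V8L over 304. T6S likewise had medians of -0.237 with cysteine at 8, -0.172 with isoleucine and -0.164 with leucine. These last 6 medians are given without a test because the contexts were chosen after the values were seen.

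At position 5, Q5E scored higher than glutamine in 13 of 14 contexts with T6 and V8 kept, with a median difference of 0.102. Of these, 3 were past the threshold: KNYKETGV at -0.00576 against -0.288 for its glutamine counterpart, a difference of 0.282 ± 0.0923, KNYKETNV at -0.0234 against -0.274, a difference of 0.251 ± 0.0992, and KNYKETHV at -0.125 against -0.308, a difference of 0.183 ± 0.0716. In these 3 the residue at 7 was glycine, asparagine or histidine, each of which scored below wild type as a single substitution. The single exception, past the threshold in the other direction, was Q5E with S7F. Q5T, with a median of 0.0111 over 17 contexts, was the only other exchange at position 5 with a median above 0, and 16 of its 17 differences passed in neither direction. Q5P at -0.676, Q5L at -0.574, Q5G at -0.391, Q5K at -0.373 and Q5D at -0.358 had the lowest medians at position 5, and every listed context of these 5 was past the threshold as lower.

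At position 7, S7R had the median nearest 0, at -0.0140 over 17 contexts with 0 lower and 0 higher by the adjusted test. S7A followed at -0.0323, S7P at -0.0627, S7Q at -0.0773, S7T at -0.0855 and S7E at -0.0945. S7D was lowest at -0.422, followed by S7I at -0.386, S7F at -0.357, S7H at -0.339, S7V at -0.329 and S7L at -0.316. Glutamate and aspartate were therefore far apart at position 7 as well as at 5, and so were arginine and histidine at position 7.

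The block of 20 by 20 residues at positions 5 and 7 with T6 and V8 kept showed how freely those positions combine. It held 330 of 399 possible sequences besides wild type, of which 282 scored above the stop level, 209 lay above the midpoint and 66 did not pass the test as below wild type. By residue at 5, the median was -0.0461 for glutamate over 15 sequences, -0.1802 for threonine over 20, -0.216 for glutamine over 16 and -0.219 for valine over 19. At the other end were proline with -0.864, leucine with -0.785 and glycine with -0.669, and 0 of the 20 sequences with proline lay above the midpoint. By chemical group at position 5, small or polar residues (C, N, Q, S, T) had 72 of 81 above the midpoint, acidic residues 21 of 31, basic residues 35 of 54, aromatic residues 23 of 39 and aliphatic residues 54 of 92. The acidic group was split, with 14 of 15 for glutamate and 7 of 16 for aspartate. Other groups were split too. Among basic residues histidine had 19 of 19, arginine 11 of 20 and lysine 5 of 15. Among aliphatic residues valine had 18 of 19 and leucine 2 of 20.

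By residue at 7, the medians in this block ran from -0.155 for serine over 17 sequences, -0.174 for arginine over 19 and -0.221 for alanine over 19 down to -0.598 for methionine over 12, -0.647 for aspartate over 16 and -0.661 for histidine over 18. Proline at 7 had 17 of 20 above the midpoint, small or polar residues 68 of 87, basic residues 35 of 50, aromatic residues 25 of 45, aliphatic residues 45 of 85 and acidic residues 12 of 27. The highest sequences of the block were KNYKETAV at 0.0808 ± 0.0669, Q5E alone and KNYKETRV at 0.0572 ± 0.0552. The lowest were KNYKGTVV at -1.15 ± 0.182, KNYKKTVV at -1.07 ± 0.151 and KNYKLTIV at -1.01 ± 0.0544. The first 2 of these 3 had large errors.

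The matching block at the core positions 6 and 8, with Q5 and S7 kept, was nearly empty of growth. It held 357 of 399 sequences, of which 27 scored above the stop level, 5 lay above the midpoint and 1 was not below wild type. The 3 highest were V8C, T6S and V8I, followed by V8L. The best double of this block was T6S with V8C at -0.359 ± 0.0562. T6S with V8L scored -0.514 ± 0.0494 and T6S with V8I -0.526 ± 0.0518. The 3 lowest, KNYKQQSM at -1.24 ± 0.145, KNYKQWSN at -1.21 ± 0.219 and KNYKQHSE at -1.18 ± 0.174, carried errors well above the library median and were not past the threshold below the stop level.

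The order of residues at position 5 was shared between core pairs that have no sequence in common. The median score of each residue at 5 was taken within each of the 7 pairs of residues at 6 and 8 named above with the largest shares above the midpoint. Across the 20 residues, Spearman's rho between these medians ranged from 0.893 to 0.973 over the 21 combinations of core pairs, and Pearson's r from 0.8603 to 0.976. Glutamate was highest at position 5 in all 7 core pairs, and proline or glycine was lowest in each. At position 7 the order was shared less closely, with rho between 0.451 and 0.887 and r between 0.437 and 0.869. Arginine was among the 3 highest residues at 7 in each of the 7 core pairs. These are descriptions over residues of 1 library, whose values share the same cultures and the same coverage of residues.

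With glutamate at 5, 10 of 10 sequences with threonine and cysteine at the core lay above the midpoint, 9 of 10 with threonine and isoleucine, 13 of 15 with threonine and leucine, 7 of 8 with serine and valine, 5 of 7 with serine and cysteine and 8 of 15 with serine and isoleucine. Against the glutamine counterpart the median gain was 0.148 over 10 contexts for threonine and cysteine, 0.173 over 10 for threonine and isoleucine, 0.232 over 15 for threonine and leucine, 0.124 over 6 for serine and valine, 0.263 over 6 for serine and cysteine and 0.183 over 15 for serine and isoleucine. The glutamate member scored higher in each context except 1 of the threonine and leucine and 1 of the serine and isoleucine contexts.

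Changes at all 4 positions kept growth in a narrow set. Of the 101 quadruples above the midpoint, 65 had serine at 6, and 62 of those 65 had C, I, L or M at 8. Their median authors' error was 0.0592 for the 65 with serine. The other 36 had neither serine nor, by definition, threonine at 6, and their median error was 0.144. The highest quadruple was KNYKESPC at -0.135 ± 0.0695, followed by KNYKESRM at -0.168 ± 0.0767, KNYKESQI at -0.211 ± 0.0741, KNYKESGC at -0.2301 ± 0.135 and KNYKESAC at -0.237 ± 0.0926. All 5 had glutamate at 5, and 26 of the 101 did. Over the whole library, with any number of changes, 3179 of 101552 sequences had glutamate at 5 and 6476 had serine at 6. C, I, L and M at 8 were listed in 4093, 5461, 6258 and 4190 sequences. The shares of these residues among all listed quadruples were not taken. KNYKESPC, KNYKESRM and KNYKESGC did not pass the test against wild type. The highest triples were KNYKETKC at 0.0295 ± 0.0736, KNYKETPC at 0.0242 ± 0.0713, KNYKETEC at 0.0142 ± 0.0634, KNYKETAC at -0.00439 ± 0.0537 and KNYKETCC at -0.0318 ± 0.0808. Each of these changed Q5 to glutamate and V8 to cysteine, kept T6 and differed only at position 7.

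Sequences above the midpoint were mostly linked to others above it by 1 reversion to wild type. Of 268 doubles above the midpoint, 266 had a single substitution parent listed and all 266 had one above the midpoint. Of 359 triples, 358 had a listed double parent and 346 had one above the midpoint. Of 101 quadruples, 100 had a listed triple parent and 64 had one above the midpoint. Where all parents were listed, all lay above the midpoint for 221 of 225 doubles, 207 of 267 triples and 16 of 44 quadruples. Singles above the midpoint were 16 of 17 at Q5 and 16 of 16 at S7. Nearly every double that changes Q5 or S7 therefore has such a parent, whether it grows or not. The share over all listed sequences was not taken. The parents share residues with their descendants, so this is a description of the library and not a test.

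Class I sequences held nearly all growth in the library. With S or T at 6 and a hydrophobic residue at 8, 708 of 5607 sequences (12.6%) lay above the midpoint and 118 were not below wild type. With a class II residue at 6 the count was 9 of 18228 (0.0494%), and with a class III residue 1 of 3358 (0.0298%). Both shares were below the 0.0618% of all stop variants and above the 0.0269% of those with the first stop at 8. With S or T at 6 but another residue at 8 it was 8 of 7283 (0.1098%). Sequences without S or T at 6 lay above the midpoint in 48 of 88662 cases (0.0541%) and above the stop level in 1403 (1.58%), each a smaller share than in the stop variants. Their 48 sequences above the midpoint had a median authors' error of 0.144, against 0.0562 for the 716 with S or T at 6 and 0.1398 for the 10 stop variants. By share and by error the set as a whole lay in the range of the stop variants.

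The share above the stop level did not follow the ligand classes outside class I. With an acidic residue at 6 and a non-hydrophobic residue at 8 it was 4.52% (215 of 4752), above that of the stop variants, although 6 of these sequences (0.126%) lay above the midpoint and the median was -0.98995. The median score at the floor differed between residues, and its part in these calls was not tested.

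A few sequences without S or T at 6 had small errors. KNYKELSV scored -0.495 ± 0.0539 and KNYKEYSV -0.476 ± 0.0653, where T6L alone scored -0.904 ± 0.0519 and T6Y alone -0.806 ± 0.113. KNYKSISC scored -0.496 ± 0.0591. These 3 had the smallest errors of the 48 and lay just above the midpoint. The quadruple KNYKKNTT, with the next smallest error, scored -0.375 ± 0.0744. All 4 were named after their values were seen, and each was below wild type in the test.

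Doubles were next compared with the sum of their single effects, limited below at the stop level. Of 1516 pairs with both singles listed, 812 had an expectation at that floor, 2 (0.132%) lay above the expectation and 1 (0.066%) below it at an adjusted p under 0.05, with the errors of all 4 scores combined. At an unadjusted p under 0.05 there were 32 above and 42 below. For the 812 pairs at the floor the expectation was the stop level itself. The errors of both singles and of wild type were still added there, so departures from the floor were harder to call. T6N with V8D, for example, scored -0.685 ± 0.0523 and passed the test against the stop level, but not the test against the sum. The few calls are therefore not evidence that such pairs follow the sum. The median deviation for each pair of positions lay between -0.0281 and 0.00373.

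Both pairs above the sum had histidine at position 8. Q5E with V8H scored -0.381 ± 0.0512 where -0.849 was expected, a deviation of 0.468 ± 0.108. T6S with V8H scored -0.5905 ± 0.0490 where -1.001 was expected, a deviation of 0.4104 ± 0.102. Neither was past an adjusted threshold of 0.01. V8H alone scored -0.919 ± 0.0501. This 1 score entered both expectations, so the 2 calls are not separate observations on histidine. KNYKETSH scored above its neighbours at positions 5 and 7: over the 19 other residues at position 5 the highest was -0.706, and over the 12 other residues listed at position 7 the highest was -0.641. At position 6 its closest neighbour was KNYKESSH, which carries both Q5E and T6S, at -0.455 ± 0.0637, a difference within the errors, and the next highest was -0.778. At position 8 several neighbours scored higher, up to KNYKETSV. For KNYKQSSH, the neighbours at position 5 with glutamate (KNYKESSH) and threonine (KNYKTSSH, -0.575 ± 0.0477) scored higher than it did. Serine with histidine at 6 and 8 had 60 of 374 sequences above the stop level, where threonine with alanine had 56 of 363, but 2 (0.535%) above the midpoint. The pairwise library gave T6S with V8H -0.204 ± 0.229 and Q5E with V8H -0.943 ± 0.559, errors too large to compare either value with the C-terminal library.

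The pair below the sum was Q5E with S7F, KNYKETFV, at -0.972 ± 0.0745 where -0.226 was expected, a deviation of -0.746 ± 0.124. Several sequences that differ from it by 1 residue scored far higher. The 14 other sequences with glutamate at 5 and T6 and V8 kept lay between -0.289 and 0.0808. With isoleucine in place of V8 the score was -0.322 ± 0.0661, with leucine -0.490 ± 0.0652, and with serine in place of T6 -0.529 ± 0.0882. The 15 other residues listed at 5 with S7F gave scores from -0.983 with proline to -0.206 with threonine, and a median of -0.556. Other neighbours were also near the stop level, such as those with alanine, phenylalanine or histidine at 8, between -1.003 and -0.988. The value rests on 1 listed score, and whether it is that of the peptide was not tested.

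Pairs that held a substitution not above the stop level as a single rarely lay above the midpoint. Among 783 tested pairs in which 1 single was not above the stop level, 57 (7.28%) were above it and 3 (0.383%) above the midpoint. These 3 were Q5E with V8H, Q5E with T6Y and Q5E with T6L, so glutamate at 5 was the partner in each. Among these 3, Q5E with V8H alone departed from the sum of the singles in the test. Q5E with T6Y deviated by 0.261 ± 0.153 from an expected -0.737 and Q5E with T6L by 0.3395 ± 0.1101 from an expected -0.834, neither past the threshold, and T6Y counted as lost with an error of 0.113. Among 122 pairs in which neither single was above the stop level, 6 were above it and 0 above the midpoint. Among 611 pairs with both singles above the stop level, 357 (58.4%) were above it and 222 (36.3%) above the midpoint.

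The same sequences scored in the pairwise library gave a second measurement. Of 1320 shared sequences, 64 (4.85%) scored lower in the C-terminal library and 2 (0.152%) higher, at an adjusted p under 0.05 of the difference. Among 67 shared singles 2 were lower, T6G with a difference of -0.237 and V8G with -0.222, and the median difference was -0.0272. Pearson's r across these singles was 0.960 (rho 0.946), where the median error was 0.0294 in the pairwise and 0.0527 in the C-terminal library. Among 1253 shared doubles 62 were lower and 2 higher, and Pearson's r across doubles was 0.737 (rho 0.556), where the median error was 0.112 in the pairwise and 0.0571 in the C-terminal library. The 3 largest differences were KNYKDTSW at -1.21 ± 0.145 against -0.298 ± 0.176, KNYKQTMQ at -1.06 ± 0.0566 against -0.168 ± 0.139, and KNYKATSW at -1.09 ± 0.0613 against -0.226 ± 0.198. All 3 lacked V, C, I or L at 8 and lay at the floor in the C-terminal library. The stop level also differed, at -0.893 in the pairwise and -1.001 in the C-terminal library. Wild type scored 0.0314 in the pairwise and -0.00849 in the C-terminal library. Correlations across sequences describe these tables, since sequences are not independent replicates.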

How the data were processed

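The deposited table of the C-terminal CRIPT library gives 1 fitness score and 1 error, also a score on the same scale, for each amino acid sequence. Per the labels, amplicons from 3 input and 3 output samples were sequenced. The authors merged the replicates. The submitters' processing notes name cutadapt and FastQC without versions. The tool, count filter, log base and kind of error are not given in the sources used here, so depth is unknown and precision is the authors' error.

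Each sequence was compared with wild type and with the median of stop variants by two-sided normal tests on the authors' errors, with Benjamini-Hochberg adjustment over all 101552 variants without a stop and a threshold of 0.05. These errors measure what the authors' own error model includes, and with 3 merged replicates the normal reference is an approximation, so calls are given with effects and errors and not with single p-values. Doubles, exchanges and shared sequences were tested likewise within their families. The midpoint, the exchanges in context and the neighbours were added after the data had been seen. Members and lists were chosen with earlier results of these data known. Named sequences were wild type, singles, the 5 highest above the stop level for 2, 3 and 4 changes, the 3 highest and lowest of each block, pairs off the sum and the 3 largest differences between libraries, others being marked. Alternatives were a stricter threshold, an error filter, rescaled errors, other stop levels and call rules, other references and means, and no floor. The error filter kept variants with an error at or below the median of the whole library, stops included. The tests were run on simulated scores with normal noise of the size that the tests assumed. There 0.00197% of unshifted variants were called above the stop level, where 2.24% of the real stop variants passed the same score. Such a simulation cannot show whether the authors' errors cover the real spread. Python 3.11.15, NumPy 2.4.6, SciPy 1.17.1 and pandas 2.3.3 were used.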

Additional observations from a re-analysis of the deposited data

Results flagged for a closer look

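A test of the difference between measurements of the same sequence in 2 libraries, adjusted over 1320 shared sequences, passed the threshold for 2 of 67 single substitutions. T6G scored -1.05 ± 0.0680 in the C-terminal library, against -0.811 ± 0.0235 for pairwise substitutions, a difference of -0.237. V8G scored -1.04 ± 0.0499 and -0.813 ± 0.0340, a difference of -0.222. In the C-terminal library both lay near the stop level of -1.001. In the pairwise library both scored above the stop level of -0.893, by more than their errors. The part of the offset between the 2 stop levels in these differences was not tested.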

How the results depend on the processing

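No paired analysis was possible because the tables carry no values per replicate, and for the same reason no replicate could be left out. The count above the stop level was 1937 when a score above the 99th percentile of stop variants replaced the test and 764 at the midpoint, a rule added after the data were seen. In the block at positions 6 and 8 these rules left 15 and 5 sequences. With only the variants whose error was at or below the library median, fewer sequences were tested and 52619 scored below wild type. The median with 1 change was then -0.335 and the mean effect at T6 was -0.762. The T6 mean minus the V8 mean was -0.0282 and no longer past the threshold, an alternative added after the data were seen. With the same filter 0 pairs were below the sum, and 23 shared sequences were lower than in the pairwise library. At an adjusted p under 0.01, 0 pairs were above the sum, 39 shared sequences were lower and 0 higher. With errors rescaled by 0.935, 4 shared sequences were higher. Without the floor, 348 pairs were above and 16 below the sum, where many expectations lie under the stop level. For quadruples above the stop level, 1592 in all, the count was 668 to 984 under 4 of the alternatives and 2002 with rescaled errors. The share without S or T at 6 stayed below that of the stop variants used as reference under all 5 alternatives to that test other than the midpoint. It ranged from 0.547% against 1.002% to 2.07% against 2.85%. Stop variants with the first stop at 8 were not taken as a separate reference there. At an adjusted p under 0.01 all 15 patterns of kept residues exceeded the stop variants. Triples above the stop level numbered 823 with the 99th percentile, against 1338.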

Other observations

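The floor of the library was not flat. Among sequences without S or T at 6 and without V, C, I, L, M or A at 8, the median score was lowest with tryptophan at each of the 4 positions, at -1.06 at each. It was highest with aspartate at positions 5, 6 and 7, at -0.993, -0.993 and -0.988, and with lysine at position 8, at -0.997. Asparagine, lysine and glutamate lay between -1.01 and -0.997 at positions 5 to 7, and methionine, phenylalanine and leucine between -1.05 and -1.04. The difference between the extremes is about the size of a typical authors' error for 1 sequence, but the medians rest on 1897 to 4870 sequences at position 5.

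Stop variants also differed by where the stop lay. Their median was -0.977 with the first stop at position 5, -0.991 at 6, -1.01 at 7 and -1.03 at 8, over 3712 to 4306 sequences each. The score that the test required was passed by 108 of 3927 stop variants with the stop at 5 and by 55 of 3712 with the stop at 8. The highest stop variant scored -0.233, and the 10 stop variants above the midpoint had errors between 0.0972 and 0.158.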
